A study of Mus musculus with 12 samples.

Results

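The rows described here are those of single-exon genes in a table of RNA immunoprecipitation (RIP) values from fetal mouse ovary. A row belonged to them when its gene had 1 annotated exon in the count files of the same study. There were 1085 such rows, for 990 genes, among 14447 rows for 7525 genes, or 7.51% of the rows and 13.2% of the genes with a row. The other 13362 rows belonged to 6535 multi-exon genes. Exonic lengths of the members ran from 35 to 93147 bp with a median of 942 bp over rows, and 147 rows (146 genes) were of genes up to 300 bp against 938 rows (844 genes) of longer genes.

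Single-exon genes are a mixed class. They include small structural RNAs such as snoRNAs, spliceosomal snRNAs and microRNA precursors, many of which lie inside the introns or exons of other genes, and the replication-dependent histone genes, which stand in clusters and make short messages without a poly(A) tail. They also include intronless genes for transcription factors and receptors, and processed pseudogenes, which are reverse-transcribed copies of spliced messages. FMRP, the product of Fmr1, is an RNA-binding protein that associates with messages and polyribosomes and regulates translation; its loss causes fragile X syndrome, and altered FMR1 repeats in people are linked to early ovarian insufficiency.

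The libraries came from whole ovaries of Fmr1 knockout (KO) and wild-type (WT) mouse embryos at E16.5, labelled with the strain name B6.129P2-Fmr1tm1Cgr/J in all samples, with 5 pairs of ovaries pooled in each sample. RNA bound by an FMRP antibody (ab17722) was sequenced in 3 KO and 3 WT RIP libraries, and RNA without antibody in 3 KO and 3 WT input libraries. The deposited RIP value is a fold enrichment, a linear ratio for each row and RIP library whose denominator the sources used here do not give. The design text calls the WT animals littermates, but the labels do not say which pools shared a litter or whether the KO embryos were homozygous. The KO is constitutive and the tissue is the whole ovary, so oocytes and somatic cells are mixed, and fewer cells of a type and less RNA per cell cannot be told apart. The files give Ensembl identifiers without names, and 0 of them matched the RefSeq table used here, so genes are placed by the coordinates of the count files (Ensembl release 104), no marker of the tissue was checked, and no function is given for a single row.

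Input libraries held 18880238 to 25707718 counted reads. The depth of the RIP libraries is unknown, because their values are ratios. As a check of the labels, the Fmr1 transcript (ENSMUSG00000000838) stood at 100.5 ± 19.7 CPM (counts scaled to library size) in KO input and 212 ± 8.44 CPM in WT input (mean ± SD of 3 libraries each). Its log2 change was -1.08 (SE 0.11, edgeR adjusted p = 0.00775). Among single-exon rows, the RIP library KO 2 stood apart as the most frequent highest value, in 406 rows (37.4%). WT 1 was highest in 201 (18.5%), and each of the other 4 libraries in 101 to 139. For multi-exon rows the shares of KO 2 and WT 1 were 21.3% and 17.3%, so WT 1 was near its multi-exon share. In the 58 rows that share values only with another single-exon gene, WT 1 was highest in 44.8%. The main counts by class and genotype are also given without KO 2 and WT 1, a setting chosen after seeing the data. The values in each library are printed for the rows described one by one.

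The first question was which gene's values these rows carry. Of the 1085 rows, 400 (36.9%) repeated all 6 values of a row of another gene, against 2466 of 13362 multi-exon rows (18.5%). Among genes up to 300 bp the repeats were the rule, with 119 of 147 rows (81.0%), whereas 281 of 938 rows of longer genes (30.0%) were repeats. The 1085 rows held 1045 distinct sets of 6 values. Of these sets, 685 belonged to 1 gene only, 333 to 2 genes, 26 to 3 genes and 1 to 24 genes.

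Most repeated rows shared their values with a multi-exon gene that overlapped the single-exon gene. This held for 97 short rows, of which 38 overlapped an exon on the same strand, 14 an exon on the opposite strand, 37 lay in an intron on the same strand and 8 in an intron on the opposite strand. It held for 245 rows of longer genes, with 16, 75, 85 and 69 rows in the same 4 positions. Among the short genes 75 of these 97 partners were on the gene's own strand, and among the longer genes 144 of 245 were on the opposite strand. Another 22 short and 36 longer rows shared values only with another single-exon gene, which overlapped in all but 2 rows; the gap in those was at most 92 bp. The remaining 685 rows, 28 of short and 657 of longer genes, had values of their own. Of these, 618 lay outside any multi-exon gene, 37 in an intron and 30 over an exon of one.

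**Figure D1:**
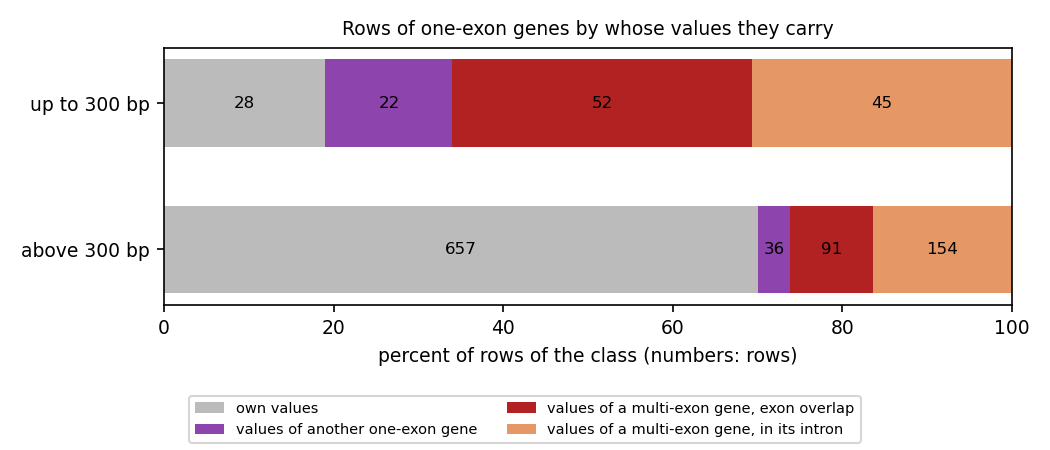
Single-exon rows by whose values they carry, for genes up to 300 bp (147 rows) and above (938 rows). The horizontal axis is the percent of rows of the class and the printed numbers are rows; own values make up 28 rows of the short class and 657 of the long class.

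Input counts of the short genes with repeated values were mostly 0. The count files assign a read to a gene only where it overlaps that gene alone, which leaves reads over overlapping exons uncounted. Of the 56 short genes that overlapped an exon of a multi-exon gene, 48 had no read in any of the 6 input libraries, and 53 had at most 10 in all 6 together. Of the 49 short genes inside an intron, 13 had no read, and of the 41 outside multi-exon genes, 17 had none. By contrast, the 27 short genes with own values had a median of 14.2 CPM, and the 583 longer genes whose rows all had own values had a median of 20.9 CPM. Per kilobase of exon, these medians were 61.9 and 21.3 CPM, against 9.50 CPM per kilobase for the 6535 multi-exon genes with a row. The 2 rows nearest the length limit on the short side, of 297 and 298 bp, had KO means of 1.70 and 1.73, and the 2 nearest on the other side, both of 303 bp, had KO means of 1.38 and 1.17.

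The share of genes with a RIP row was counted by class and input level. Of 21848 annotated single-exon genes 990 had a row (4.53%), against 6535 of 33568 multi-exon genes (19.5%). Among genes with enough input reads to be tested, the shares were 848 of 4912 (17.3%) and 6159 of 18786 (32.8%). At 10 to 100 CPM of input, 502 of 787 longer single-exon genes (63.8%), 25 of 76 short ones (32.9%) and 4184 of 8569 multi-exon genes (48.8%) had a row. Above 100 CPM the order changed, with 98 of 189 longer single-exon genes (51.9%), 6 of 19 short ones (31.6%) and 1423 of 1645 multi-exon genes (86.5%). Another 78 short genes with no input read at all had a row. How the authors chose rows is also not stated there, and these shares are a description.

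The level of enrichment came next. Over all single-exon rows the median fold enrichment was 1.62, 1.79 and 1.62 in KO libraries 1 to 3 and 1.71, 1.59 and 1.59 in WT libraries 1 to 3. Multi-exon rows had medians of 1.73, 1.78 and 1.75 in KO and 1.78, 1.75 and 1.73 in WT. Single-exon rows therefore lay lower in 5 of 6 libraries and slightly higher in KO 2, and KO and WT medians overlapped in both classes. On the log2(value + 1) scale, where each library was centred and rows with a mean under 1 were left out, the single-exon median minus the multi-exon median averaged -0.049 over the 6 libraries (SD 0.033, from -0.085 to 0.0095). The difference was -0.063 without KO 2 and WT 1. For rows above 300 bp it was -0.054 (SD 0.032) and for rows up to 300 bp it was 0.022 (SD 0.078), so the short class as a whole was not separated from multi-exon rows beyond the spread of the libraries. With each distinct set of values counted once, and as single-exon only where no multi-exon gene shared it, the short class stood at -0.12.

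The classes were then split by the source of the values. The 97 short rows with values of a multi-exon gene had medians of 1.93, 2.24 and 2.03 in KO and 2.01, 1.83 and 1.92 in WT. The 28 short rows with own values had lower medians, at 1.37, 1.55 and 1.29 in KO and 1.54, 1.50 and 1.51 in WT, and the lowest of the 97-row medians exceeded the highest of these. The 657 longer rows with own values stood at 1.59, 1.73 and 1.58 in KO and 1.67, 1.59 and 1.58 in WT, and the 245 longer rows with values of a multi-exon gene at 1.71, 1.80 and 1.69 and at 1.73, 1.65 and 1.67. All 6 libraries exceeded a fold enrichment of 2 in 57 single-exon rows (5.25%) and in 2225 multi-exon rows (16.7%). Of the 57 rows, 36 were short (24.5% of the short rows), and 32 of those 36 carried the values of a multi-exon gene. Among the 938 longer rows 21 (2.24%) exceeded 2 in all libraries.

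**Figure D2:**
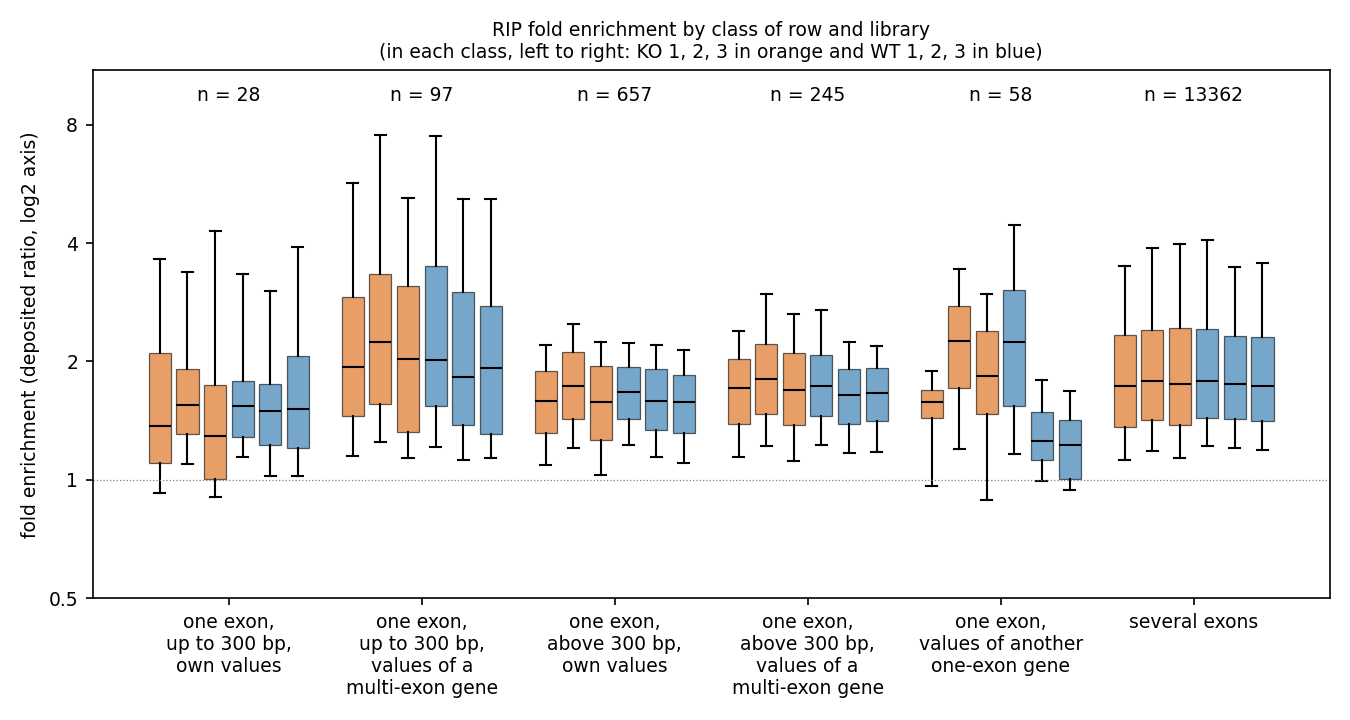
Fold enrichment (deposited ratio, log2 axis) by class of row and library, with KO 1 to 3 in orange and WT 1 to 3 in blue within each class; boxes span the quartiles with the median as a line, whiskers run from the 10th to the 90th percentile, and n is the number of rows. The short rows that carry the values of a multi-exon gene have medians above those of the multi-exon rows in all 6 libraries, and in the 58 rows that share values with another single-exon gene WT 2 and WT 3 lie lowest.

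The largest values in the whole single-exon class were in short rows that carried the values of a host gene. A 76 bp gene at chr7:127307659-127307734 had ratios of 2.84, 58.0 and 81.3 in KO and 206, 5.54 and 3.59 in WT, shared with a multi-exon gene of the opposite strand. KO 2, KO 3 and WT 1 were high and the other 3 libraries low, so the groups overlapped entirely (limma adjusted p = 0.957). A gene at chr11:106811484-106811587 showed 4.01, 175 and 27.4 in KO and 78.6, 11.2 and 7.36 in WT, with KO 2 and WT 1 highest in their groups. A 60 bp gene at chr14:30294106-30294165 was more even, at 27.6, 31.7 and 26.1 in KO and 19.6, 37.8 and 49.2 in WT (means 28.5 ± 2.92 and 35.6 ± 14.9, SD over 3 libraries each). Its host had 307 CPM of input, while the 60 bp gene itself had 1 read in the 6 libraries together. The genes at chr9:40714879-40714964 and chr9:40715291-40715376, both of 86 bp, carried 1 shared set of values with their host, at 92.2, 20.2 and 14.5 in KO and 21.9, 19.1 and 5.27 in WT.

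Among short rows with own values, the highest was a 133 bp gene at chr10:86541180-86541312, at 11.2, 12.0 and 8.25 in KO and 10.6, 9.12 and 12.8 in WT. Its KO and WT means were 10.5 ± 1.96 and 10.8 ± 1.83 (SD over 3 libraries each), which overlapped throughout (limma adjusted p = 0.988), and it had 0 counted reads in all input libraries and overlapped an exon of a multi-exon gene. A 246 bp gene at chr10:90954153-90954398, in an intron, had 2 rows. The first stood at 8.10, 5.63 and 5.91 in KO and 14.7, 8.55 and 6.47 in WT, and the second at 6.06, 5.45 and 4.95 in KO and 5.33, 4.22 and 4.98 in WT, so its rows had opposite differences and overlapped in both. Its input level was 0.360 CPM (KO) and 0.384 CPM (WT). The other rows named by the same rule were lower: a 246 bp gene at chr8:103261277-103261522 had means of 3.03 ± 0.837 in KO and 2.81 ± 0.547 in WT (SD over 3 libraries each), and a 240 bp gene at chrX:5896826-5897065 had 1.70 ± 0.050 and 2.15 ± 0.572.

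**Figure D3:**
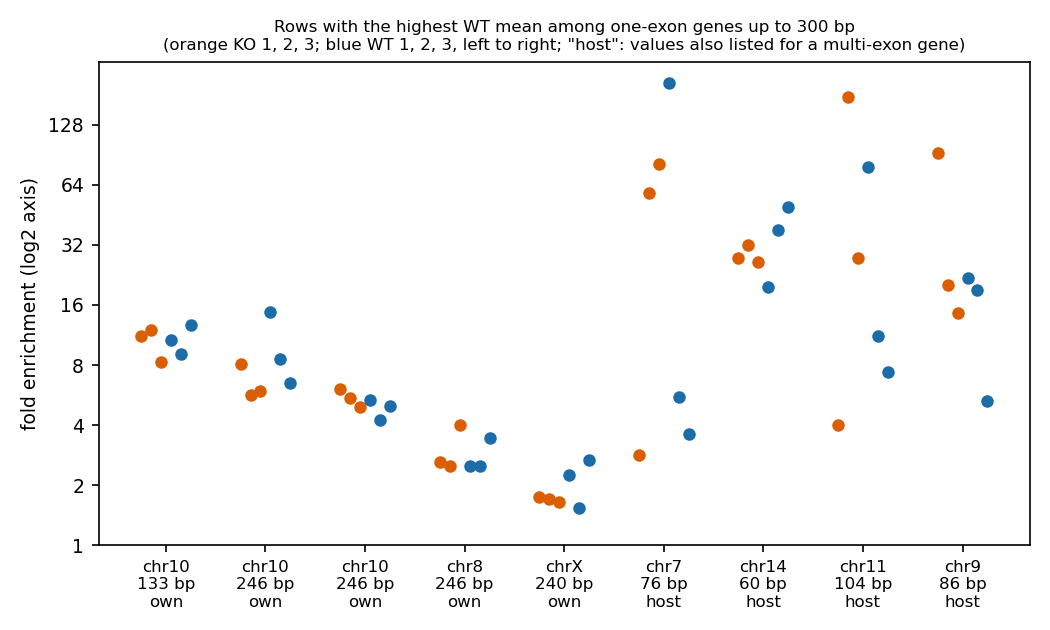
Fold enrichment (log2 axis) in each of the 6 RIP libraries for the short rows with the highest WT means, 5 with own values and 4 sets shared with a multi-exon host gene (orange KO 1 to 3, blue WT 1 to 3). Rows with own values stay within 1.54 to 14.7, while shared rows reach 206; the set at chromosome 14 stays within 26.1 to 31.7 in KO.

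Some longer rows with high WT means were high in only a few libraries of both genotypes, and others were high in every library. The 1845 bp gene at chr7:120632475-120634319, with own values, read 1.40, 9.12 and 27.1 in KO and 27.3, 0.998 and 0.988 in WT. It overlapped an exon of a multi-exon gene and had 1.03 CPM (KO) and 0.972 CPM (WT) of input. Its highest values came from KO 3 and WT 1, and WT 2 and WT 3 were near 1. At chr7:62111619-62114258 a gene of 2640 bp read 1.78, 12.1 and 3.54 in KO and 14.8, 0.338 and 1.80 in WT, with KO 2 and WT 1 high. A 1016 bp gene in an intron at chr7:102107452-102108467 was even across libraries, at 5.93, 3.87 and 7.29 in KO and 5.56, 6.82 and 4.53 in WT. The highest mean among longer rows with shared values was at chr5:110378474-110379067, at 3.15, 12.9 and 15.6 in KO and 61.4, 2.00 and 1.50 in WT. A shared row that was high in every library lay at chr19:5345224-5346056, at 9.49, 4.34 and 4.54 in KO and 5.99, 7.19 and 5.85 in WT (means 6.12 ± 2.92 and 6.34 ± 0.740, SD over 3 libraries each).

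Rows that shared values with a host could be set against the other rows of that host. Short shared rows that overlapped a host exon made up 34 distinct sets, with a median of 1.14 times the median of the host's other rows, and 17 of them were the host's highest row and 6 its lowest. Short shared rows in an intron made up 32 sets, with a median of 0.958 times the host's other rows, with 10 the highest and 10 the lowest. For longer genes the medians were 1.15 over 51 sets at exons and 0.994 over 53 sets in introns, with 26 and 22 highest and 13 and 24 lowest. The hosts had a median of 2 other rows for both short groups and for longer exonic sets, and 1 for longer intronic sets. With so few other rows, a shared row is often the highest or lowest of its host. More than 2-fold above the host's other rows were 8 short exonic sets, 2 short intronic sets, 11 longer exonic sets and 0 longer intronic sets. Since both genes list the same values, the files do not show which transcript was enriched.

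Median enrichment of single-exon rows with own values was lower in each higher bin of input, from 1 CPM upwards, and that of multi-exon rows was highest above 100 CPM. In genes at 1 to 10 CPM, single-exon rows (129) had a median of 1.86 over KO means and 1.84 over WT means, against 1.74 and 1.75 in 634 multi-exon rows. At 10 to 100 CPM, 454 single-exon rows stood at 1.66 in both genotypes, and 6921 multi-exon rows at 1.70 and 1.72. Above 100 CPM, 94 single-exon rows stood at 1.26 in KO and 1.23 in WT, while 5002 multi-exon rows stood at 1.97 and 1.96. Per library the single-exon medians above 100 CPM were 1.25, 1.43 and 1.07 in KO and 1.29, 1.18 and 1.20 in WT, all below the lowest multi-exon median of 1.91. None of the 94 rows (0) exceeded 2 in all 6 libraries, against 1429 of the 5002.

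**Figure D4:**
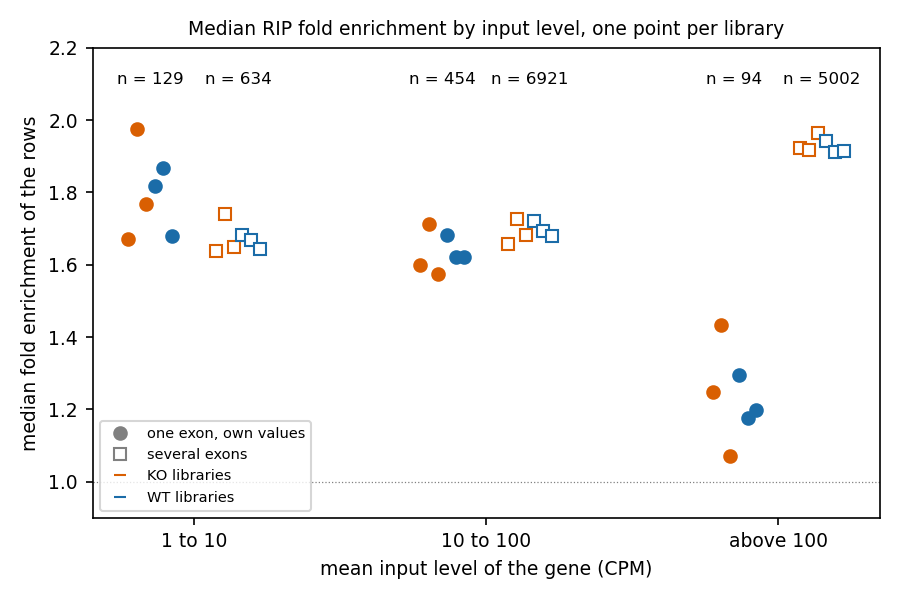
Median fold enrichment in each RIP library (1 point per library; orange KO, blue WT) for rows of single-exon genes with own values (filled circles) and of multi-exon genes (open squares), by the mean input level of the gene in CPM; n is the number of rows. Above 100 CPM the 6 single-exon points lie between 1.07 and 1.43 and the 6 multi-exon points between 1.91 and 1.96.

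The most abundant members had ratios near 1. The single-exon gene with the most input reads, at chr17:40157244-40159092, took 11606176 of the counted reads and had input levels of 88328 CPM (KO) and 88566 CPM (WT); its row, shared with an overlapping gene of 7.89 CPM on the opposite strand, read 1.08, 1.36 and 0.863 in KO and 1.04, 0.841 and 0.780 in WT. The next, a 1365 bp gene at chr2:40445764-40447128, had own values of 1.02, 1.14 and 0.949 in KO and 1.03, 0.937 and 0.854 in WT in its first row. In both genes KO 2 was the highest library. Among short genes the most abundant was at chr2:172351441-172351611 (171 bp; 470 CPM of input in KO, 445 in WT), at 0.777, 1.10 and 0.661 in KO and 1.07, 0.946 and 0.932 in WT. These 3 rows had means under 1 over the 6 libraries and were left out of the test by the filter on low values.

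Median ratios were also taken by length. Rows with own values had median KO means of 1.61 at 300 to 1000 bp (303 rows), 1.69 at 1000 to 2000 bp (220 rows), 1.80 at 2000 to 4000 bp (99 rows) and 1.81 above (35 rows). WT medians were 1.55, 1.71, 1.78 and 1.72. Multi-exon rows of the same lengths stood at 1.73, 1.79, 1.79 and 1.75 in KO and 1.67, 1.79, 1.78 and 1.79 in WT. Few single-exon genes had several rows: 904 had 1 row, 77 had 2 and 9 had 3, or 91.3% with 1 row against 52.7% of multi-exon genes. Of the 86 genes with several rows, 45 had every row tested and WT minus KO differences of 1 sign. Genes with an untested row count among the rest, whatever their signs. At chr2:30361549-30364231 (2683 bp), for example, the 3 rows had KO means of 2.21, 3.35 and 1.85 and WT means of 2.04, 2.78 and 1.56.

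The comparison of genotypes asked which single-exon rows were enriched more in WT, where the antibody's target is intact, than in KO. The KO libraries give the background level reached without intact Fmr1. There the mean exceeded 2 in 310 member rows (28.6%), and in WT in 223 (20.6%), against 36.5% and 35.7% of all rows. Without KO 2 and WT 1 these counts were 279 and 199. Of the 1085 rows, 1062 were tested (139 short, 923 longer), and 23 with a mean under 1 were not. In the limma fit across all 14365 rows, 0 single-exon rows passed a Benjamini-Hochberg adjusted p of 0.05, as did 0.00% of all rows, and the lowest adjusted p of a member was 0.375. With an unadjusted p under 0.05, 48 members (4.52%) had the higher level in WT, as did 5.98% of all rows, and 32 (3.01%) had it in KO, as did 2.88% of all rows. All 3 WT values lay above all 3 KO values in 68 members (6.40%; 8.39% of all rows), and below them in 102 (9.60%; 6.77% of all rows). None of these shares is a call, since their p-values are unadjusted and 0 rows passed the adjusted threshold. For the counts without overlap, 3 against 3 libraries allow no exact permutation p below 0.1, two-sided.

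The WT minus KO difference of the members was slightly negative on balance. Its median was -0.027 on the log2(value + 1) scale, against -0.0021 over all rows tested, and 435 of 1062 rows (41.0%) were estimated higher in WT against 50.2% of multi-exon rows. Without KO 2 the median was -8.5e-06, with 50.0% of rows higher in WT, and over all rows it was 0.0083; without KO 2 and WT 1 it was -0.015, with 46.7% higher in WT, and over all rows 0.0078. Short rows had a median of -0.052 and longer rows of -0.025. Within the short class the 26 tested rows with own values had a median of 0.058, with 17 of them estimated higher in WT, and the 95 with values of a multi-exon gene had -0.052. The unadjusted count in KO's favour turned on WT 1: without it 35 members favoured WT and 78 favoured KO, where all rows gave 796 and 622. Members make up 7.51% of all rows. Without KO 2 and WT 1, a setting chosen after seeing the data, the counts were 39 (3.74%) and 64 (6.14%). Over all rows that setting gave 729 (5.11%) and 569 (3.99%). What sets these libraries apart was not tested.

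**Figure D5:**
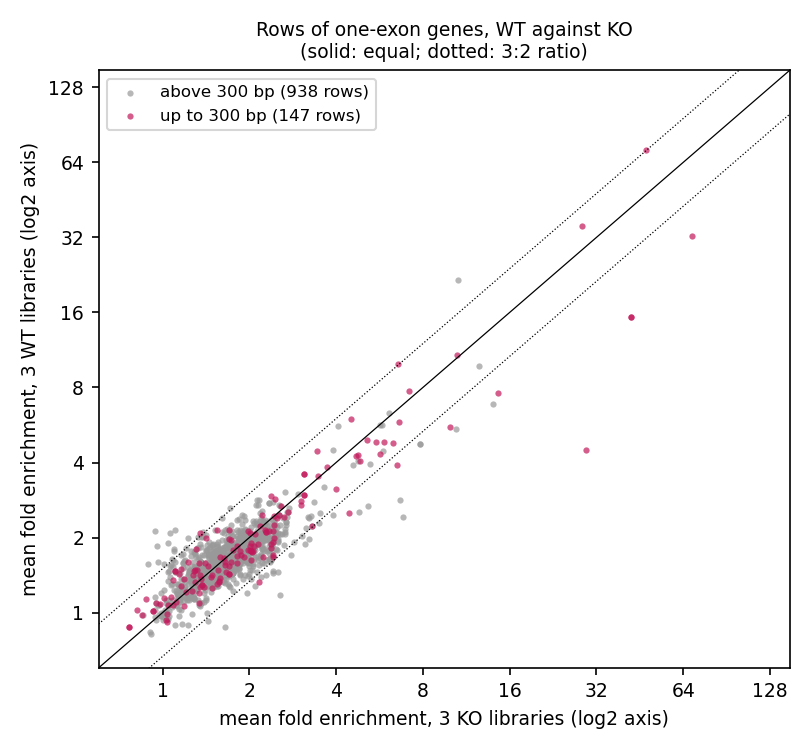
Mean fold enrichment of the 3 WT libraries against that of the 3 KO libraries for 1085 single-exon rows (log2 axes), with short rows in pink and longer rows in grey; the solid line marks equal values and the dotted lines a ratio of 3 to 2. Of the rows, 20 lie above the upper dotted line (1.84%, against 4.35% of all rows) and 32 below the lower one (2.95%, against 4.07%), and no row passed the adjusted test.

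The 5 longer rows with the smallest p in WT's favour all had own values. A 2768 bp gene at chr7:18520257-18523024 (ENSMUSG00000109116), outside multi-exon genes, had 2 of the 5. Its first row read 1.13, 1.23 and 1.27 in KO and 1.81, 1.80 and 1.84 in WT, and its second 0.956, 1.12 and 1.21 in KO and 1.64, 1.77 and 1.90 in WT. In both rows the groups did not overlap, with log2 differences of 0.35 (SE 0.07) and 0.40 (SE 0.08) and a limma adjusted p of 0.375 in each. The gene at chr1:17467636-17470505 (ENSMUSG00000101589, 2870 bp) read 0.731, 1.01 and 1.12 in KO and 1.52, 1.82 and 2.20 in WT, and the gene at chr2:111012980-111017751 (4772 bp, in an intron) read 0.713, 0.867 and 1.24 in KO and 1.58, 2.07 and 2.70 in WT. WT means were 1.85 ± 0.341 and 2.12 ± 0.559 (SD over 3 libraries each), against KO means of 0.952 ± 0.200 and 0.940 ± 0.272, again without overlap. Input levels of these 3 genes were 60.3, 23.9 and 18.9 CPM in KO and 49.6, 19.2 and 19.5 CPM in WT. The smallest p among short rows higher in WT belonged to chr12:111034198-111034462 (265 bp), a row shared with a host on the opposite strand, at 1.17, 1.54 and 1.34 in KO and 2.06, 1.84 and 2.38 in WT (log2 difference 0.40, SE 0.10, limma adjusted p = 0.433).

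Of the 5 longer rows with the smallest p in KO's favour, 2 shared the values of a multi-exon gene. The row at chr7:83541470-83545605 (ENSMUSG00000108878, 4136 bp), shared with a multi-exon gene of the same strand, had the smallest p of all members, at 2.55, 2.36 and 2.76 in KO and 1.11, 1.11 and 1.30 in WT. KO lay above WT without overlap (means 2.56 ± 0.201 and 1.18 ± 0.108, SD over 3 libraries each; log2 difference -0.71, SE 0.09, limma adjusted p = 0.375). Its host stood at 53.4 CPM of input, while the single-exon gene had 0.819 CPM (KO) and 1.09 CPM (WT). At chr12:84360628-84363850 (ENSMUSG00000113529, 3223 bp), shared with a gene on the opposite strand, the ratios were 1.44, 1.58 and 1.92 in KO and 1.12, 0.812 and 0.691 in WT. A 2290 bp gene with own values at chr9:44392811-44395100 read 2.15, 2.46 and 2.61 in KO and 1.47, 1.21 and 1.65 in WT. It overlapped an exon of a multi-exon gene and had 0.691 CPM (KO) and 0.704 CPM (WT) of input. With an unadjusted p under 0.05, 6 of the 139 short rows (4.32%) were higher in WT and 1 (0.719%) in KO, to be read against 5.98% and 2.88% of all rows. That 1 row was of an 84 bp gene at chr11:120237562-120237645 with its host's values, at 1.97, 2.47 and 2.03 in KO and 1.42, 1.57 and 0.987 in WT. Without KO 2 alone the short-row counts were 5 (3.65%) and 3 (2.19%) of 137, against 5.46% and 3.36% of all rows. Without KO 2 and WT 1, a setting chosen after seeing the data, they were 2 (1.48%) and 12 (8.89%) of 135, against 5.11% and 3.99%.

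Rows that shared values with another single-exon gene had a pattern of their own across libraries. In these 58 rows the medians were 1.58, 2.26 and 1.84 in KO and 2.24, 1.25 and 1.23 in WT, so that WT 1 lay with the KO libraries while WT 2 and WT 3 lay lowest. WT 1 was the highest library in 26 rows and KO 2 in 24, WT 2 and WT 3 in 0, and 6 of 54 tested rows were estimated higher in WT. The 58 rows hold 29 distinct sets of values, of which 27 were tested and 3 were estimated higher in WT. With an unadjusted p under 0.05, by limma, 0 of the 54 lay higher in WT, against 5.98% of all rows, and 2 (3.70%), which list 1 set of values under a pair of genes, lay higher in KO, against 2.88%. Without KO 2 alone, 2 of 52 rows (1 set) lay higher in KO, against 3.36% of all rows, and 0 higher in WT. Without KO 2 and WT 1, 20 of 52 rows (10 sets) lay higher in KO, against 3.99% of all rows, and 0 higher in WT. That setting was chosen after seeing the data and leaves out the WT library that was high in these rows. Its count is therefore no support for a difference between genotypes. A recurring arrangement was a gene of 129 to 144 bp with a longer single-exon gene of 390 to 2482 bp over it on the opposite strand of chromosome 13, which 11 of the 22 short rows of this kind had. None of the 11 genes had an input read. Their KO 1 values ran from 0.856 to 1.88, KO 2 from 1.17 to 4.06, KO 3 from 0.825 to 4.17, WT 1 from 1.18 to 4.82, WT 2 from 0.942 to 1.33 and WT 3 from 0.917 to 1.36. WT 1 was highest in 10 of the 11, KO 2 in 1, and KO 1, WT 2 and WT 3 exceeded 2 in 0. The lowest adjusted p among them was 0.746 (limma). Reads of such pairs cannot be told apart by gene, and copies with near-identical sequence are uncertain.

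In input RNA, single-exon genes with a RIP row did not pass the test of genotype. Of 848 tested, 0 passed in the edgeR fit across 23698 genes, where 0.0422% of all genes did. With an unadjusted p under 0.05, 14 lay higher in KO and 22 lower, to be read against 2.90% and 3.00% of all genes, and their median log2 change was -0.013 against -0.0020 over all genes. Over all 4912 single-exon genes tested, with or without a row, 1 passed, a 3428 bp gene at chr7:29626403-29629830 that has no row in the RIP table. It had 44, 46 and 52 reads in KO and 122, 186 and 175 in WT, or 2.31 ± 0.423 and 7.06 ± 1.96 CPM (SD over 3 libraries each), without overlap. It fell in KO by 1.61 on the log2 scale (SE 0.25, adjusted p = 0.00775, edgeR), and it did not pass without KO replicate 2 (adjusted p = 0.0770) or WT replicate 3 (adjusted p = 0.0711).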

How the data were processed

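Members and lists were chosen with earlier results of these data known. Read counts per gene were deposited for the 6 input libraries, unnormalized; per the file headers they were made with featureCounts 1.6.3 over exons of the Ensembl 104 annotation, with no option for strand, so antisense genes cannot be told apart and near-identical copies are uncertain. The fold enrichment, a linear ratio, was deposited by the authors for each RIP library. The submitters' processing notes name GRCm38 as a build and, as tools without roles, DESeq2 1.26.0, MACS2 2.1.0, BWA 0.7.12 and FastQC; the build predates the annotation, and no coordinate was converted. The comparison of peaks named in the labels was not analysed here.

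A gene with 1 exon entry was single-exon; rows with all 6 values equal were repeats. Ratios were tested with limma 3.58.1 (R 4.3.3, trended eBayes) after adding 1, taking log2 and centring every library by its median; rows whose mean was under 1 were left out, with Benjamini-Hochberg adjustment over all rows at 0.05; this scale understates changes of low values. Counts were tested with edgeR 4.0.16 (TMM, filterByExpr, quasi-likelihood), and DESeq2 1.42.0 was an alternative. CPM values use TMM factors. Both tests were tested on simulated data. P-values measure the spread between pools, which the labels call biological replicates. The same replicate number did not pair KO and WT libraries: correlations of deviations from group means were -0.60, -0.34 and -0.22 in RIP and -0.11, -0.051 and -0.071 in input.

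Named rows were, in each length class, the 5 with the highest WT mean among rows with own values and among rows with a multi-exon gene's values, the 5 smallest p in each direction, the 5 most abundant genes, the 3 genes with most rows and the rows nearest 300 bp; examples of these are printed. Symbol lists (histone genes, snoRNAs, microRNAs and other classes, and cell type markers) could not be applied without names.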

Additional observations from a re-analysis of the deposited data

How the results depend on the processing

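No single-exon RIP row passed the adjusted threshold in any alternative tried, nor with KO 2 and WT 1 both left out, an alternative chosen after seeing the data. Leaving out 1 library gave 0 calls each time. With an unadjusted limma p under 0.05, 35 to 48 members were then higher in WT and 22 to 78 higher in KO. Over all rows these counts were 675 to 796 and 285 to 622. With KO 2 and WT 1 both left out, 64 members (6.14%) were higher in KO, against 3.99% of all rows. Rows with a mean of at least 4 gave 0 higher in WT and 1 in KO, against 9 and 8 over all rows. With 1 row per gene, 42 members were higher in WT and 21 in KO, against 420 and 168 over all genes with a row. The single-exon minus multi-exon median was -0.011 with a pseudocount of 10 and 0.030, reversed, when rows averaged at least 4, a filter that keeps few members. Leaving out 1 library gave -0.057 to -0.043 (short rows 0.013 to 0.055, longer rows -0.063 to -0.049). For short rows it was 0.11 when rows averaged at least 4, -0.12, reversed, with distinct sets counted once, 0.16 with a 200 bp limit and -0.090, reversed, with a 500 bp limit; the cause was not tested. For longer rows it was -0.012 with a pseudocount of 10 and -0.29 when rows averaged at least 4. The median WT minus KO difference was -0.31 over all, -0.22 over short and -0.34 over longer rows averaging at least 4, and leaving out 1 library gave -0.047 to -8.5e-06, -0.064 to 0.0028 and -0.045 to -0.00026. The 20 rows named by smallest p kept their direction and stayed short of the threshold in all 291 pairs of row and alternative (adjusted p 0.335 to 0.878, limma). They were picked for their p in these same libraries, so the kept direction is no support for a difference between genotypes. With the replicate number as a block, 0 single-exon RIP rows passed (lowest adjusted p 0.650, limma). With an unadjusted p under 0.05, 40 members were higher in WT and 29 in KO, against 751 and 330 over all rows. In input, 1 single-exon gene passed with the block, against 20 of all genes (edgeR). In input, 10 of 17634 single-exon genes passed with no filter on low counts, against 113 of all 49570 genes (edgeR). With DESeq2, 2 passed, against 37 of all genes. With 1 library left out, 0 to 3 passed, against 5 to 37 of all genes (edgeR). Of the 97 short genes with values of a multi-exon gene, 74 had at most 10 input reads in the 6 libraries together, and the depth behind the RIP ratios is unknown.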

Other observations

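Single-exon rows were unevenly spread over chromosomes. Chromosome 13 held 100 of them (9.22%), against 392 multi-exon rows (2.93%). Runs of at least 8 single-exon genes with a row, each within 200 kb of the next, were looked for after the values were seen, and 3 were found.

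The largest run, at chr13:23715220-24118834, held 34 of the 41 single-exon genes annotated there, with a median length of 536.5 bp over rows and a median input of 122 CPM. Its median ratios were 1.52, 1.72 and 1.37 in KO and 1.54, 1.23 and 1.22 in WT, and 25 of 34 rows (20 of 28 distinct sets of values) were estimated higher in KO, 0 of them with an unadjusted p under 0.05 (limma). Of all single-exon rows tested 59.0% were estimated higher in KO, and of all rows 50.5%. A second run, at chr13:21899933-22016366, held 16 of 20 annotated single-exon genes, with medians of 1.32, 1.52 and 1.13 in KO and 1.31, 1.18 and 1.10 in WT and 15 of 16 rows (12 of 13 sets) higher in KO, 0 with an unadjusted p under 0.05. The third, at chr3:96127181-96363265, held 10 of 26 genes, with 11 rows of which 11 (7 of 7 sets) were estimated higher in KO; its medians were 1.45, 2.19 and 1.81 in KO and 2.43, 1.40 and 1.32 in WT. WT 1 lay among the KO values in the first 2 runs and above them in the third, so the groups overlapped in all 3. Without KO 2 the rows estimated higher in KO were 23 of 32, 10 of 16 and 4 of 11 in the 3 runs. The shares in that setting were 50.0% of single-exon rows and 48.2% of all rows. Without KO 2 and WT 1 the runs had 24 of 32, 10 of 14 and 8 of 11, against 53.3% and 48.5%. There 13, 4 and 3 rows (9, 3 and 2 sets) were higher in KO with an unadjusted limma p under 0.05, and 0 in WT. Of all rows in that setting, 3.99% were higher in KO at that level, and no single-exon row passed the adjusted threshold. The setting was chosen after seeing the data and leaves out WT 1, which lay among or above the KO values in these runs. Its counts are therefore no support for a difference between genotypes. With all 6 libraries, and without KO 2 alone, 0 rows of the 3 runs were at that level in either direction.

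Input RNA of the same genes was estimated lower in KO in 27 of 27 tested genes of the first run and 13 of 13 of the second, with 5 in each with an unadjusted p under 0.05 (3.00% of all genes tested were lower in KO at that level) and median log2 changes of -0.26 and -0.22 (edgeR, 0 past the adjusted threshold). Summed over the first run the input was 5777, 4651 and 4640 CPM in KO and 5386, 5553 and 6439 CPM in WT, and over the second 2537, 2042 and 2087 CPM in KO and 2477, 2405 and 2758 CPM in WT. KO 1 lay among the WT libraries in both sums, so the groups overlapped. In the third run 3 of 5 tested genes were lower in KO.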
